A study of Homo sapiens with 2 samples.

Results

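The cells described here are the HOPX-positive cells among the PC9-like, persister-like cells of a pooled single-cell RNA run, 285 of the 8540 barcodes kept and of 8748 in all. The run pooled 5 populations of 2 human lung adenocarcinoma lines: PC9 cells without drug, PC9 cells under 150 nM osimertinib for 4 days or for 11 days, NCI-H358 cells without drug, and NCI-H358 cells under 500 nM sotorasib for 8 days. PC9 carries an EGFR exon 19 deletion and osimertinib inhibits mutant EGFR. Sotorasib is the targeted drug given to NCI-H358, and both drugs were used to bring cells into the drug-tolerant persister (DTP) state, with dead floating cells washed off before collection. Each population was tagged with a hashtag antibody, but the matrix holds 0 hashtag rows, so no barcode could be given a line, drug or day, and persister-like and naive-like are names for ranges of marker genes. The matrix was read as 1 sample without replicates, 361434462 unique molecular identifiers (UMIs) over 36601 genes with a median of 37077.5 UMIs per barcode, so no test was made. All 95% intervals cover counting error only, and the spread between cultures is not known.

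HOPX (ENSG00000171476, hg38 chromosome 4, 56647989 to 56681877, minus strand) encodes a small homeodomain protein that does not bind DNA itself and works through partners such as serum response factor (SRF) and histone deacetylases. In the lung it is a marker of alveolar type 1 (AT1) cells, the flat cells of gas exchange, and HOPX-positive AT1 cells can give rise to surfactant-producing alveolar type 2 (AT2) cells during regeneration. CLIC5 (ENSG00000112782, chromosome 6, 45880827 to 46080348, minus strand), a chloride intracellular channel protein, is another AT1 marker. The study asked whether HOPX marks a subpopulation of DTP cells, and the comparison here asks which other genes differed between PC9-like persister-like cells with and without HOPX UMIs.

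Members were chosen on measured values. Of the 8540 barcodes with at least 1000 genes and at most 20% mitochondrial UMIs, 4918 had EGFR, the target of osimertinib, at 150 CPM or more (CPM being UMIs scaled to the total UMIs of the cell or group), and 4278 of these had 0 UMIs of NKX2-1, the lung lineage factor that NCI-H358-like cells express. In 2612 of them the summed level of IGFBP3, FN1, HLA-B and CCDC80 reached 800 CPM (the gate), and 285 of the 2612 had at least 1 HOPX UMI while 2327 had none. Of the 285, 13 lay just inside the EGFR limit at 150 to 165 CPM and 14 HOPX-positive cells just outside it at 135 to 150 CPM. At the limit of the summed genes, 8 members lay at 800 to 1000 CPM and 6 HOPX-positive cells at 600 to 800 CPM. Levels of these genes and of HOPX are a description of the choice.

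The label was checked with a line score, the share of line-specific UMIs that came from 50 H358-like genes rather than 50 PC9-like genes, each sum scaled to its level in its own line. The genes of the lists below took no part in the score, except that the 2 signature lists from the study's supplement were not kept out of it. Of genes named below, 3 took part, HIST1H1D on the PC9-like side and PAGE5 and PCSK1N on the H358-like side. Of the 285 members, 239 had at most 10% of the score on the H358-like side and 46 had more (16.1%, 12.1 to 20.9), against 54 of 2327 HOPX-negative gate cells (2.32%, 1.75 to 3.02). Those HOPX-negative cells were also part of the reference from which the score genes were chosen, so their low share is partly set by that choice. The share above 10% was 8.04% of the 199 gate cells with 1 HOPX UMI, 22.2% of the 45 with 2 and 48.8% of the 41 with 3 or more. In all, 15 members lay above 75%. These were shallow barcodes with a median of 11159 UMIs, 1 to 6 EGFR UMIs each and 2657 CPM of MMP7, a matrix metalloproteinase of the H358-like persister-like marker list, and they held 20.9% of all HOPX UMIs of the members in 15 cells. For these 15 cells the data go against the label.

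Another 31 members lay between 10% and 75%, with a median of 43795 UMIs, and Scrublet called 17 of them doublets. They held 15.6% of the HOPX UMIs, and the 239 cells at or below 10% held 63.4%, 361 of 569 UMIs. The limit of 0 NKX2-1 UMIs had itself removed 182 further HOPX-positive cells of the EGFR and summed-gene ranges, 167 of them above 10%. The values below are therefore given for the 239 cells within the line limit, beside those for all 285 where they differ. The limit was set after the data were seen, and cells of both lines in 1 droplet and cells of 1 line with genes of the other cannot be told apart.

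**Figure D1:**
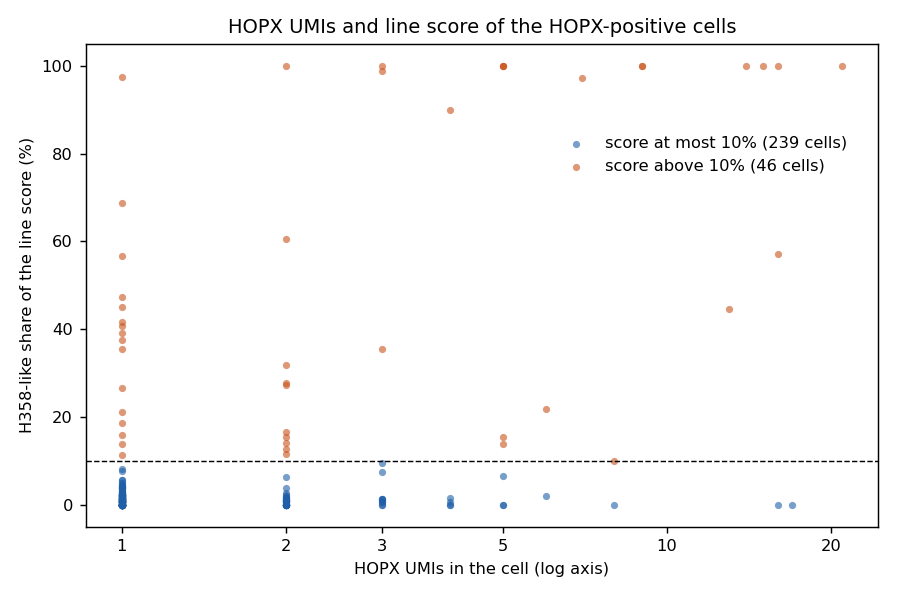
HOPX UMIs per cell (x axis, log scale) against the H358-like share of the line score in percent (y axis) for the 285 HOPX-positive cells, 1 point per cell, with the 10% limit dashed. The 46 cells above the limit include 20 of the 41 cells with 3 or more HOPX UMIs, and the highest count within the limit is 17 UMIs.

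Within the line limit the cells bore the PC9-like persister-like markers. The 6 genes of that list (MGP, FILIP1L, CLIC3, NEDD9, DAB2, TFPI2) summed to 1301 CPM, against 42.4 CPM in the PC9-like naive-like gate, which is the same gate with IGFBP3, FN1, HLA-B and CCDC80 under 800 CPM in sum. The 8 naive-like markers summed to 279 against 1351 CPM. That gate was read without the line limit and lies on the other side of the same cut, which partly sets these gaps. In the matched HOPX-negative cells, described below, the 2 lists summed to 1294 and 238 CPM, so they describe the gate more than its HOPX-positive cells. DUSP6, a phosphatase that ERK signalling induces, stood at 9.38 CPM in the members against 48 CPM in the naive-like gate, and the median mitochondrial share was 3.09% against 7.67%. The 11 mesenchymal-like cell markers summed to 41.3 CPM in these cells and 62.5 CPM in their matched HOPX-negative cells. Of these, 3 reached 5 CPM in either group, TAGLN, COL5A1 and COL1A1, and TAGLN is described below. COL3A1, THY1 and PDGFRB had 0 UMIs in the members and SPARC stood at 1.05 CPM.

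HOPX was sparse in PC9-like persister-like cells and sparser in naive-like cells. A share of cells with a UMI depends on the UMIs drawn, so each cell was thinned to 10000 UMIs. At that depth 91 of 2488 gate cells within the line limit were HOPX-positive (3.66%, 2.95 to 4.47, 24 shallower cells left out), against 6 of 1610 naive-like cells within the limit (0.373%, 0.137 to 0.809, 7 left out). Unthinned, with median depths of 32780 and 53609 UMIs, the shares were 9.51% and 2.91%. The persister-like share thus lay above that of cells in which the gene should be low, and the intervals did not overlap, but the gates were cut by genes measured in these same cells. In H358-like persister-like cells (line score above 90% and PSAP at 300 CPM or more) the thinned share was 64.8% (61.9 to 67.7) of 1081 cells.

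Without the line limit the thinned shares were 4.42% (3.66 to 5.29) of 2577 gate cells and 0.725% (0.375 to 1.26) of 1656 naive-like cells. Of the 59 HOPX-positive naive-like cells, 12 lay above the line limit. With the gate cells within the line limit divided into 4 equal groups by depth, the unthinned share was 8.60%, 10.2%, 8.90% and 10.4% from the shallowest to the deepest, and the HOPX level 6.85, 4.43, 4.35 and 2.28 CPM. Of the 239 positive cells within the limit 183 had 1 HOPX UMI, and the 21 with 3 or more held 108 of the 361 UMIs. Its variance at 10000 UMIs was 2.30 times its mean, against a median of 1.03 over 1068 genes of similar mean, 3 of which had a higher ratio, LTB with 4.69 the highest.

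The ratio of HOPX to H358-like genes was then read in each group of cells. In H358-like persister-like cells HOPX stood at 181 CPM and MMP7 at 469.6 CPM, which is 38.6 HOPX UMIs per 100 MMP7 UMIs. In gate cells within the line limit HOPX stood at 3.83 CPM (3.45 to 4.25) and MMP7 at 1.30 CPM (1.08 to 1.55), or 296 per 100, and in naive-like cells within the limit at 0.542 and 0.829 CPM, or 65.4 per 100. For SFTA3, an H358-like persister-like marker, the same ratio was 108 per 100 in H358-like persister-like cells, 612 in the gate and 66.2 in naive-like cells. For CTSS, a lysosomal protease, it was 99.5, 129 and 78.5 in the same order, and for MUC15, a membrane mucin, 141, 262 and 340. For each of these genes the ratio in the gate was above that in H358-like persister-like cells, by amounts that differed widely and were least for CTSS. The line limit itself removes cells rich in such genes.

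**Figure D2:**
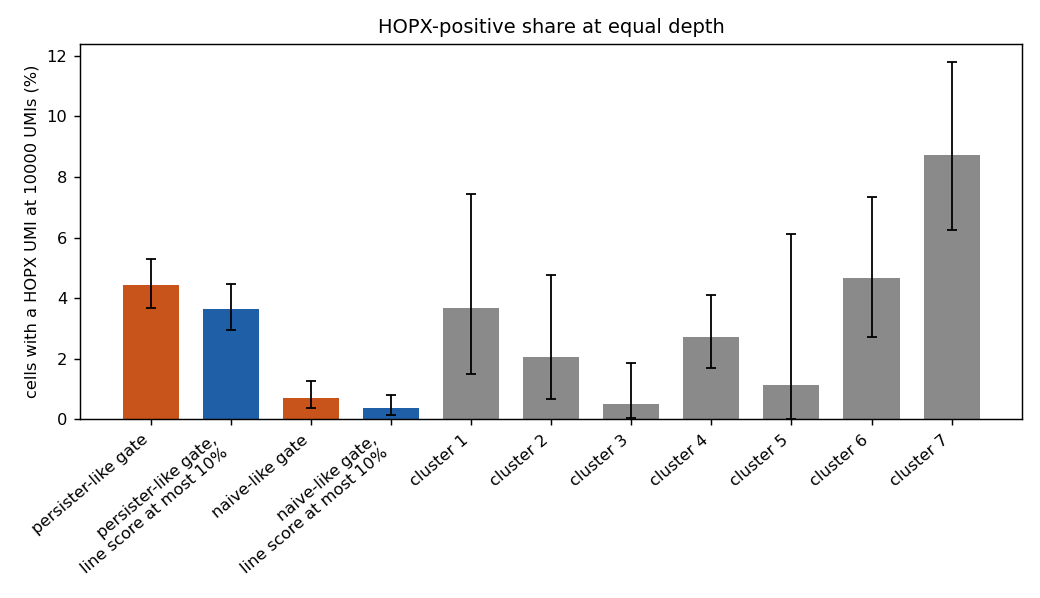
Percent of cells with a HOPX UMI after thinning to 10000 UMIs (y axis, from 0) in the persister-like and naive-like gates with and without the line limit, and in clusters 1 to 7 of the persister-like gate within the line limit, with bars for 95% exact binomial intervals. Cluster 7 stands highest at 8.74%, and the naive-like gate within the limit is at 0.373%.

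HOPX-positive cells were compared with HOPX-negative gate cells of like depth. Each member received the 2 HOPX-negative cells nearest in total UMIs, and UMIs were summed over each group, giving 239 members against 477 cells within the line limit (median 32946 and 32959 UMIs) and 285 against 569 in all (32943 and 32937). Of 10735 genes at 5 CPM or more in either group, 54 (0.503%) were 1.5-fold or more higher in the 239 members and 77 (0.717%) lower, on the scale of log2(CPM + 5), which understates the change of low genes. Over all 285, 82 of 10772 genes (0.761%) were higher and 49 (0.455%) lower. The median log2 ratio over all genes was -0.02 in both. HLA-B, a gene of the rule, is among the 54.

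KRT13, IL1RN and BCAS1 had the highest ratios by the rule for named genes. KRT13 (ENSG00000171401, chromosome 17, 41500981 to 41505705, minus strand), a keratin of stratified mucosal epithelia, stood at 142 CPM (134 to 149) in the 239 members and at 37.3 CPM (34.6 to 40.2) in matched cells, a log2 ratio of 1.79. It was detected in 40.6% of members and 25.8% of matched cells, and no member held more than 9.08% of its UMIs. IL1RN, the secreted antagonist of the interleukin 1 receptor, stood at 22.2 CPM (19.3 to 25.4) against 6.17 CPM (5.10 to 7.39), a log2 ratio of 1.29. BCAS1, first described as a gene amplified in breast cancer, stood at 65.3 against 28.3 CPM, a log2 ratio of 1.08.

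The remaining highest genes included surface glycoproteins and 2 retinoid-responsive genes. MUC20 (ENSG00000176945, chromosome 3, 195720884 to 195741123, plus strand), a membrane mucin, stood at 205 CPM (196 to 214) against 102 CPM (97.6 to 107), a log2 ratio of 0.97. MUC16, the mucin that carries the CA125 antigen, stood at 98.2 against 51.3 CPM (0.87), and CEACAM6, a carcinoembryonic antigen-family adhesion molecule, at 248 against 129 CPM (0.91), with 12% of its UMIs in 1 cell. The retinoid-responsive genes RARRES1 and PLAAT4 had log2 ratios of 0.97 and 1.07. RARRES1 stood at 356 against 180.1 CPM and PLAAT4 at 78.9 against 35.0 CPM, 12.6% of it in 1 cell. GABRP, a subunit of the GABA type A receptor, and CYSRT1 had ratios of 0.95 and 0.87.

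All 10 of these genes lay above matched cells under all 22 alternatives within the line limit, and 7 of the 10 were past 1.5-fold in each, the exceptions being RARRES1, GABRP and MUC16, whose lowest ratios were 0.57, 0.56 and 0.56. MUC20 lies in a duplicated region and CEACAM6 has close relatives, so reads of near-identical copies may be split between genes. Over all 285 cells the order was different, since MMP7 stood first with 69.2 against 0.793 CPM (log2 ratio 3.68), with PCSK1N, PAGE5, CLDN3, AGR2, SPANXB1 and C15orf48 also among the 10 highest. Within the line limit these had log2 ratios of 1.16 (MMP7), 0.13 (PCSK1N), 0.35 (PAGE5), 0.53 (CLDN3), 0.77 (AGR2), 0.24 (SPANXB1) and 0.20 (C15orf48). For MMP7, 43.7% of the UMIs within the limit lay in 1 cell, and the ratio was 0.05 at a line score of at most 2%.

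The 4 measured of 8 mucins lay at a median of 0.58, which ran from 0.06 to 1.02 across the alternatives. Of these, 3 were above 0 and 1 was below (-0.18), and MUC20 and MUC16, already named, were the 2 past 1.5-fold. The median of the complement and airway defence list was 0.23 (13 genes measured), and 3 of these passed 1.5-fold, all higher. These were LCN2, SAA2 and BPIFB1. LCN2, an iron-sequestering antibacterial protein, stood at 1265 CPM (1243 to 1288) against 744 CPM (732 to 756), a log2 ratio of 0.76, and was detected in all 239 members and 98.1% of matched cells. SAA2, an acute-phase protein nearly identical to SAA1, stood at 29.5 against 15.7 CPM, and BPIFB1, an airway secretory protein, at 9.27 against 3.69 CPM. S100A9, a calcium-binding protein of inflamed epithelia that is also on the naive-like marker list, stood at 137 against 83.9 CPM (0.68).

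MHC class I genes were a little higher without any of them reaching 1.5-fold. Of 13 measured genes 10 had ratios above 0, with a median of 0.25. HLA-C stood at 419 against 288 CPM (log2 ratio 0.53) and B2M, the light chain that class I molecules share, at 1567 against 1178 CPM (0.41). HLA-B, a near relative of HLA-C with which reads may be shared, is in the rule and was at 742 against 408 CPM. The median was 0.12 for 16 interferon-induced genes and 0.16 for 20 lysosome genes, and none of either list reached 1.5-fold.

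The H358-like persister-like marker list, which marks the other line, had 4 measured genes within the line limit, with a median of 0.73, and MMP7 and CEACAM6 passed 1.5-fold. Over all 285 cells it had 7 measured genes, 5 past 1.5-fold and a median of 0.86. Its part in the other results was not tested. Within the line limit 91 members had a score of 0, with a median depth of 27882 UMIs against 32946 for all 239. These 91 held 162 HOPX UMIs, 57.0 CPM and up to 17 UMIs in a cell.

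Keratins other than KRT13 differed little as a group, with a median of -0.01 for the 13 genes of keratins and transitional epithelium. KRT17, a keratin of basal and wounded epithelia, was the 1 past 1.5-fold, at 29.5 against 14.5 CPM (0.82), but was detected in 14.6% of members and 18.4% of matched cells, and 22.1% of its UMIs in members lay in 1 cell. The 12 Grainyhead, GATA and epithelial factors had a median of 0.20 with 0 past 1.5-fold.

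Of 18 AT1 genes 11 were measured, 0 passed 1.5-fold and their median was -0.12. CLIC5 stood at 5.48 CPM (4.09 to 7.19) in the 239 members and 7.12 CPM (5.97 to 8.42) in matched cells, a log2 ratio of -0.21, and was detected in 15.9% and 17.4% of cells, so its intervals overlap. AGER, the receptor for advanced glycation end products that marks AT1 cells in many atlases, was at 1.90 against 1.58 CPM, and CLDN18, a tight-junction claudin of alveolar cells, had 0 UMIs in members, which allows up to 0.389 CPM, and 0.105 CPM in matched cells. PDPN and AQP5, other defining AT1 markers, were at 0 in both groups. RTKN2 (159 against 181 CPM) and CAV1 (327 against 380.2 CPM) were among the AT1 genes below 0, with log2 ratios of -0.18 and -0.22, and SCEL (27.1 against 17.2 CPM, 0.53), LMO7 (0.32) and GPRC5A (0.18) were above 0. Only 1 of 14 AT2 genes was measured.

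Cell cycle genes lay lower in HOPX-positive cells, though for S phase not under every alternative. For 43 S phase genes the median log2 ratio was -0.47, 11 being 1.5-fold or more lower and 0 higher, and for 54 G2/M genes it was -0.45, 13 being lower, 0 higher and 53 below 0. The S phase median ran from -1.12 at middle depth to 0.036 among the members of lowest depth within the limit, and reached 0.15 at lowest depth over all 285. MKI67, a marker of proliferating cells, stood at 49.7 against 87.8 CPM (-0.76) and TOP2A, the topoisomerase of dividing cells, at 128 against 225 CPM (-0.79). The 6 cycling markers (MKI67, TOP2A, CDK1, UBE2C, CENPF, BIRC5) mark cycling cells, and 65 of 239 members (27.2%, 21.7 to 33.3) had 3 or more of them, against 200 of 477 matched cells (41.9%, 37.5 to 46.5). Without Scrublet calls the shares were 22.4% and 39.6%, and over all 285 members 30.9% against 42.4%.

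Of the 10 lowest genes, 8 were cell cycle genes or replication-dependent histones. They were HIST1H1D (log2 ratio -1.22, and itself 1 of the 50 PC9-like genes of the line score), RRM2 (-0.92), HIST1H4C (-0.92), SPC25 (-0.91), ZWINT (-0.83), CDK1 (-0.82), HJURP (-0.82) and TK1 (-0.81), the thymidine kinase of S phase. RRM2, a subunit of ribonucleotide reductase, stood at 22.4 against 47.0 CPM. HIST1H4C, at 772 against 1464 CPM, and HIST1H1D belong to multigene families whose reads may be split, and their mature RNA largely lacks the poly(A) tail that the assay captures. Among the members of lowest depth the ratio was 0.82 for RRM2, 0.69 for HIST1H1D, 0.52 for HIST1H4C, 0.24 for ZWINT, 0.16 for CDK1 and 0.073 for SPC25, while HJURP and TK1 were slightly below 0 and the G2/M genes lay at a median of -0.19. With members and matched cells limited to fewer than 3 cycling markers, that median was -0.13.

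The other lowest genes were CPA4 and TAGLN. CPA4, a secreted carboxypeptidase, stood at 49.9 CPM (45.5 to 54.6) against 96.5 CPM (92.2 to 101), a log2 ratio of -0.89. TAGLN, an actin-binding protein of contractile cells and a target of SRF, is on the mesenchymal-like marker list and stood at 18.9 CPM (16.2 to 21.8) against 37.5 CPM (34.8 to 40.4), a log2 ratio of -0.83, and 22.9% of its UMIs in members came from 1 cell. MYL7, an atrial myosin light chain, stood at 20.5 against 39.6 CPM (-0.81). DKK1, a secreted inhibitor of WNT signalling, was below 0 but not past 1.5-fold, at 134 against 185 CPM (-0.45).

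Genes of factors known to work with HOPX, and of other regulators fixed for description, differed little. SRF itself was at 18.5 against 21.9 CPM (log2 ratio -0.19). The 12 measured genes of SRF and its targets had a median of -0.12, with 11 below 0 and 0 past 1.5-fold. TAGLN, the SRF target named above as past 1.5-fold lower, is not on that list. HDAC2, a histone deacetylase through which HOPX acts, was at 162 against 182 CPM (-0.16). The 20 histone-modifying enzymes had a median of -0.08 and 0 past 1.5-fold, with the Polycomb genes EZH2 (38.6 against 53.0 CPM, -0.41) and EED (37.1 against 51.6 CPM, -0.43) lowest, and SETDB1, a histone H3 lysine 9 methyltransferase, at -0.10. YAP1 (55.0 against 56.4 CPM) and TEAD1 (152 CPM in both groups) had ratios of -0.03 and 0.00, and 18 YAP/TEAD targets had a median of -0.15 with none past 1.5-fold.

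For NF-kB, RELA was at 43.3 against 43.2 CPM, REL at 16.3 against 19.4 CPM (-0.19) and NFKB1 at 25.9 against 29.6 CPM (-0.16). The 8 subunits and kinases had a median of -0.06 and 0 past 1.5-fold. For 13 NF-kB targets the median was 0.13, and 2 passed 1.5-fold, both higher: LTB, a lymphotoxin subunit (7.69 against 2.74 CPM), and CXCL8, a neutrophil chemokine (6.01 against 2.00 CPM), for which 70.2% of the members' UMIs lay in 1 cell. For 15 genes of ERK output, which osimertinib lowers in PC9 cells, the median was -0.04, and SPRY1, a feedback inhibitor of receptor signalling, passed 1.5-fold at 24.7 against 13.5 CPM (0.68). RNA levels of these genes do not measure the activity of the proteins.

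The study's supplement lists signature genes of the PC9 persister clusters with and without HOPX accessibility, from another assay. The protein-coding genes in the copy read here were used, those with a matching symbol in the matrix and outside the rule, so the lists are shorter than the full ones. Of 416 genes of the HOPX-positive accessibility cluster 236 were measured, at a median log2 ratio of 0.06, with 153 above 0, 3 past 1.5-fold higher and 0 lower. Of 247 genes of the HOPX-negative cluster 147 were measured, at a median of -0.10, with 105 below 0, 1 past 1.5-fold higher and 4 lower. The 1 higher was RARRES1, which is among the highest genes of the HOPX-positive cells named above. Beside a median of -0.02 over all genes, these medians are small displacements. The 3 of 236 higher and the 4 of 147 lower lie above the backgrounds of 0.503% higher and 0.717% lower, but are few genes. EXO1 of the HOPX-negative list is also on the S phase list, and the part of such shared genes was not tested.

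**Figure D3:**
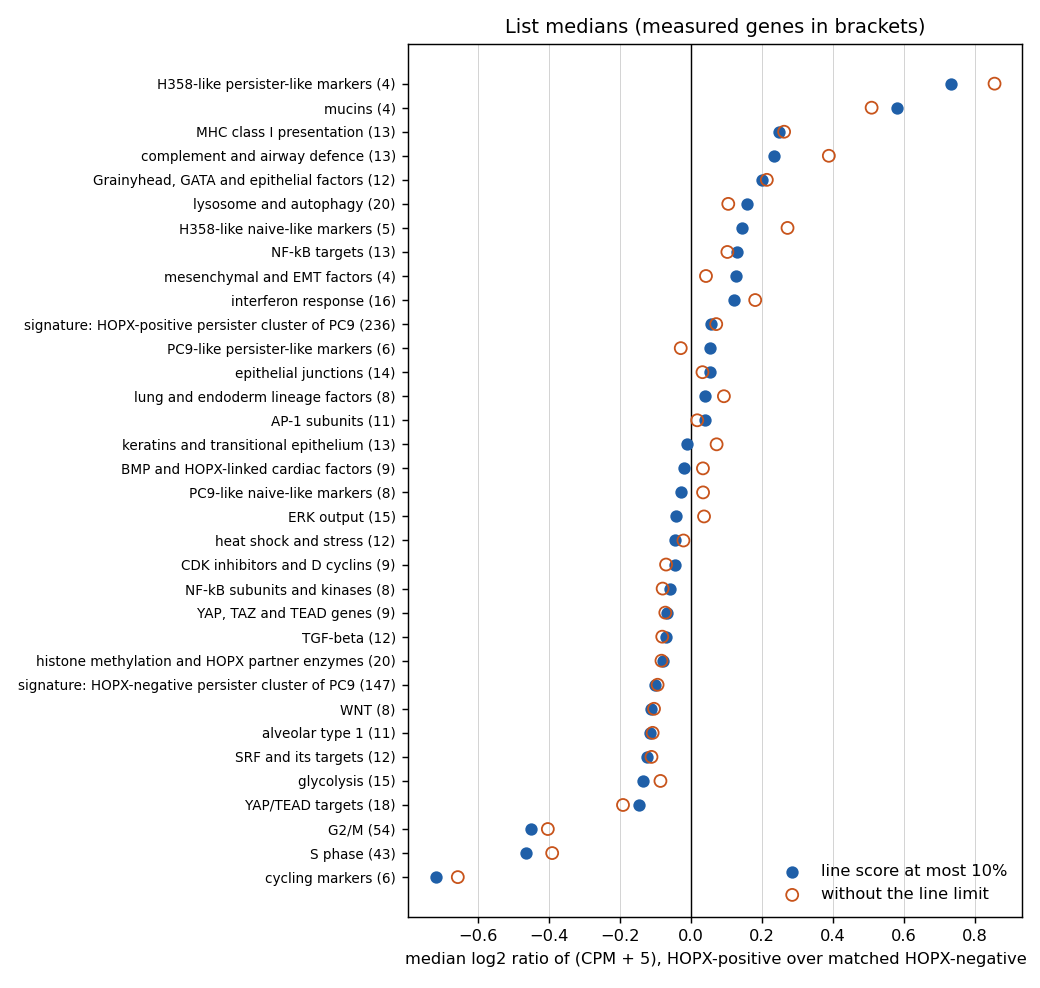
Median log2 ratio of (CPM + 5), HOPX-positive over matched HOPX-negative cells (x axis), for each gene list with at least 4 measured genes (y axis, measured genes within the line limit in brackets), filled for the 239 cells within the line limit and open for all 285 (without the line limit). Cycling markers lie lowest at -0.72, and mucins reach 0.58 within the limit.

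Among the HOPX-positive cells themselves, the levels of several genes differed by the number of HOPX UMIs. Within the line limit 183 cells had 1 HOPX UMI, 35 had 2 and 21 had 3 or more, each compared with its own matched HOPX-negative cells. KRT13 stood at 48.2 CPM (43.3 to 53.5), 245 CPM (219 to 273) and 769 CPM (712 to 829.9), against 35.1, 23.9 and 48.8 CPM in the matched cells. In the highest class 12 of 21 cells had a KRT13 UMI and the top cell held 18.2% of them. MUC20 stood at 168, 259 and 435 CPM, against 100.3, 108 and 97.7 CPM, and every cell with 2 or more HOPX UMIs had a MUC20 UMI. The cells with the most HOPX UMIs within the limit had 17 of 17651 and 16 of 38648 UMIs, and both had a line score of 0, 0 MMP7 UMIs and 119 and 111 KRT13 UMIs. Of other H358-like genes they held 4 and 1 MUC15 UMIs and 1 and 5 CTSS UMIs.

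Other genes followed the same order. BCAS1 stood at 50.4, 85.9 and 159.9 CPM, IL1RN at 14.1, 25.8 and 85.1 CPM, MUC16 at 77.2, 138 and 214 CPM and LCN2 at 1021, 1847 and 2439 CPM, while matched LCN2 stood at 744, 768 and 567 CPM. RARRES1 did not follow it, with 318, 506 and 455 CPM. CLIC5 stood at 5.06 (3.57 to 6.98), 3.80 (1.23 to 8.87) and 11.5 CPM (5.51 to 21.1) against 7.26, 3.04 and 6.32 CPM, and these intervals overlap. TAGLN went the other way, from 21.9 over 12.2 to 3.45 CPM, as did CPA4, from 56.0 over 35.0 to 21.9 CPM.

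The share of cells with 3 or more cycling markers was 30.1%, 17.1% and 19.0% by HOPX count, against 41.9%, 41.4% and 54.8% in the matched cells. Its last class holds 4 of 21 cells. TOP2A stood at 148, 82.8 and 29.9 CPM, and the G2/M median was -0.33, -1.22 and -1.46.

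The share of all genes past 1.5-fold differed between these classes. They differ in cell number as well as in HOPX count, and these cannot be told apart here. With 1 HOPX UMI, 0.251% of 10768 genes were 1.5-fold higher and 0.418% lower, with 2 UMIs 4.82% and 8.83%, and with 3 or more 10.1% and 16.3%. In the last class 4 of 5 measured mucins and 6 of 13 MHC class I genes were past 1.5-fold higher, and 45 of 53 G2/M genes lower. The median depth of the classes was 32598, 31198 and 37162 UMIs.

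**Figure D4:**
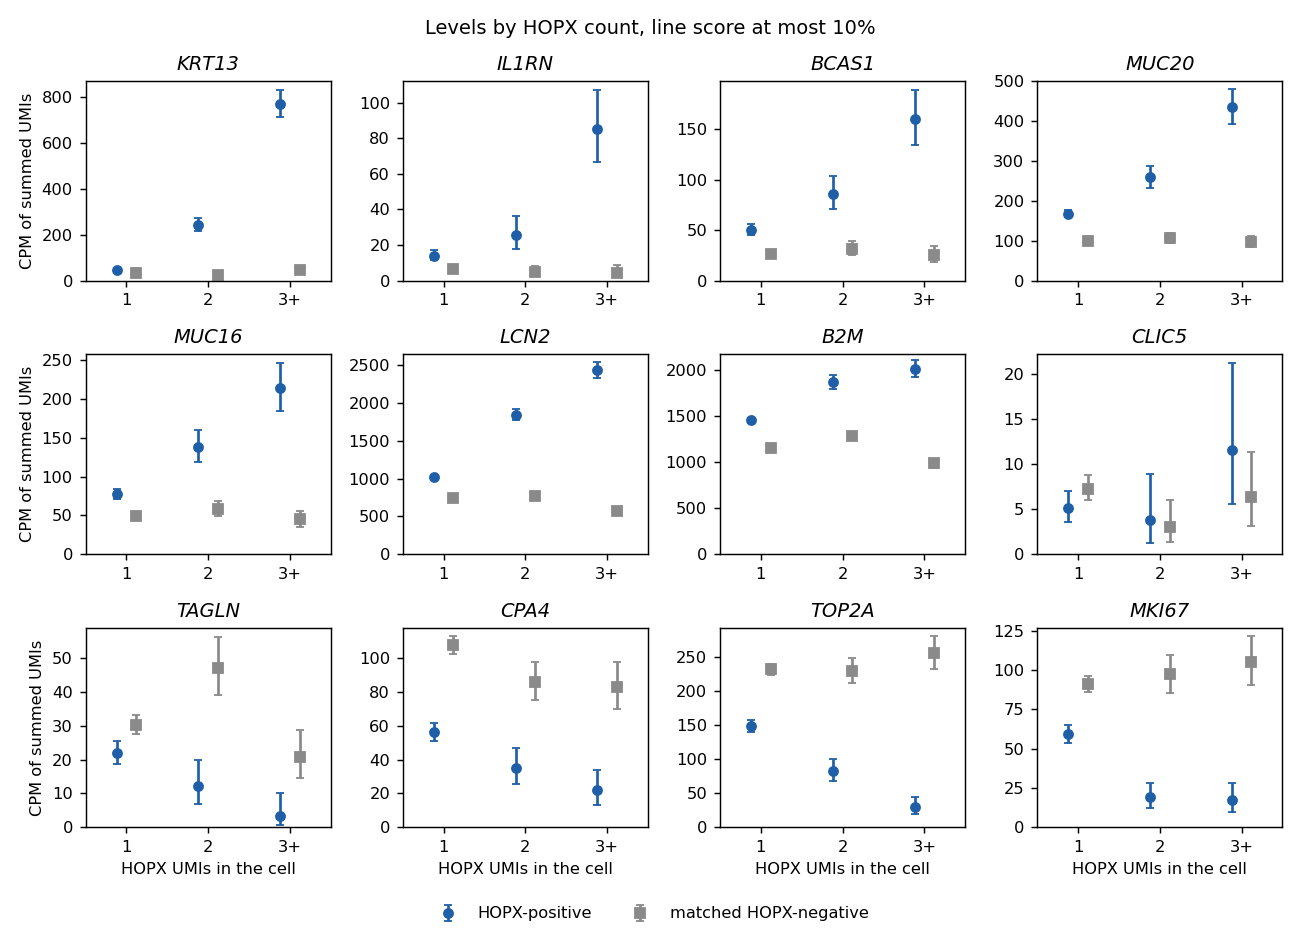
Levels of 12 genes in CPM of summed UMIs (y axes, linear from 0) in cells with 1, 2 and 3 or more HOPX UMIs within the line limit (circles) and in their matched HOPX-negative cells (squares), with 95% Poisson intervals. KRT13 stands at 48.2, 245 and 769 CPM, while TOP2A and CPA4 descend.

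HOPX-positive cells were found in every cluster of the gate but not evenly. Clustering on 2000 variable genes gave 8 clusters, which are named by number. Genes of the rule and listed genes were left out of it, but not those of the 2 signature lists. Since KRT13, GABRP and others lead clusters made from these same cells, their levels by cluster are a description. Cluster 7, led by CYP4B1, TAC3, APOBEC3A, LYPD2, GABRP and KRT13, held 70 of the 239 members (29.3%) and 16.1% of HOPX-negative cells, and its thinned HOPX-positive share was 8.74% (6.26 to 11.8). It also held 24 of the cells with 2 or more HOPX UMIs, 10 of the 21 with 3 or more, and the highest CLIC5 level, 21.4 CPM.

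Cluster 6, led by ALPG, AOC1, PLA2G10 and RARRES1, had a thinned share of 4.66% (2.74 to 7.35), and cluster 4, led by ANKRD1 and FILIP1L, 2.71% (1.68 to 4.11). The S phase cluster 3, led by CCNE2 and CLSPN, had the lowest share, 0.515% (0.0625 to 1.85), and the G2/M cluster 2, led by ASPM and KIF20A, 2.07% (0.674 to 4.76). Cluster 1, at 3.68%, was led by KRT6B, IL1RL1, S100A9, DUSP6 and ITGA6, all but DUSP6 being on the naive-like marker list. There ITGA6 stood at 177 CPM, against 38.3 CPM in the other clusters. This cluster held 24 of the 239 members (10.0%), and 96.3% of its cells had 3 or more cycling markers. Scrublet called 54.2% of its cells doublets. Cluster 8, led by S100A2, PAGE5 and MMP7, was set aside, since 93 of its 97 cells lay above the line limit, 47 of the 97 being HOPX-positive.

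Matching within clusters left a smaller difference. With 234 members and 464 HOPX-negative cells of the same clusters, 28 genes (0.262% of 10676) were 1.5-fold higher and 19 (0.178%) lower. KRT13 kept a log2 ratio of 1.53, IL1RN 1.10, BCAS1 0.86, CEACAM6 0.80, PLAAT4 0.75 and MUC20 0.66, while LCN2 went from 0.76 to 0.45 and CLIC3, a chloride intracellular channel protein of the PC9-like persister-like marker list, from 0.73 (199 against 119 CPM) to 0.30. TAGLN was at -0.72. The S phase median went to 0.01 and the G2/M median to -0.39, and CLIC5 stood at -0.51.

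The same genes were read in H358-like persister-like cells, where HOPX is common. Of 1306 such cells, 694 had HOPX at 100 CPM or more and 356 under 20 CPM, and 333 of each were matched in depth, with medians of 14941 and 13455 UMIs. KRT13 stood at 31.5 CPM (27.3 to 36.1) in HOPX-high and 0.504 CPM (0.104 to 1.47) in HOPX-low cells, a log2 ratio of 2.73. MUC20 stood at 200.3 against 50.1 CPM (1.90), BCAS1 at 56.5 against 12.4 CPM (1.82), CLIC3 at 141 against 41.2 CPM (1.66) and MUC16 at 69.5 against 28.1 CPM (1.17). Of the other highest genes, PLAAT4 stood at 87.9 against 44.9 CPM (0.90), while CEACAM6 (0.46) and CYSRT1 (0.57) were under 1.5-fold. RARRES1, IL1RN and GABRP were low in both groups, at 2.01 against 2.69, 2.32 against 0.504 and 3.71 against 0.672 CPM.

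TAGLN stood at 1.70 against 92.9 CPM in these cells (-3.87) and CPA4 at 0.926 against 6.22 CPM. TAGLN is 1 of the mesenchymal-like cell markers, and others of that list moved with it, SPARC at 3.24 against 145 CPM, COL3A1 at 0.618 against 23.9 CPM, COL1A1 at 8.65 against 37.8 CPM and LUM at 10.2 against 41.5 CPM, while COL1A2, THY1, PDGFRB and DCN were at or near 0 in both groups. Their part in the result was not tested. CLIC5 was higher in level than in PC9-like cells, and its intervals again overlapped, at 49.6 CPM (44.3 to 55.3) against 50.7 CPM (45.2 to 56.8). Cell cycle genes were not alike. TOP2A stood at 206 against 199 CPM (0.05) and MKI67 at 38.8 against 42.0 CPM (-0.10), but RRM2 stood at 21.0 against 53.1 CPM (-1.16), CLSPN at 14.2 against 34.8 CPM (-1.05), TK1 at 25.5 against 43.8 CPM (-0.68), HELLS at 24.4 against 39.0 CPM (-0.58) and ZWINT at 13.4 against 22.5 CPM (-0.58). The groups were cut at other HOPX levels than in PC9-like cells, so the values stand side by side and the difference between the lines was not tested.

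**Figure D5:**
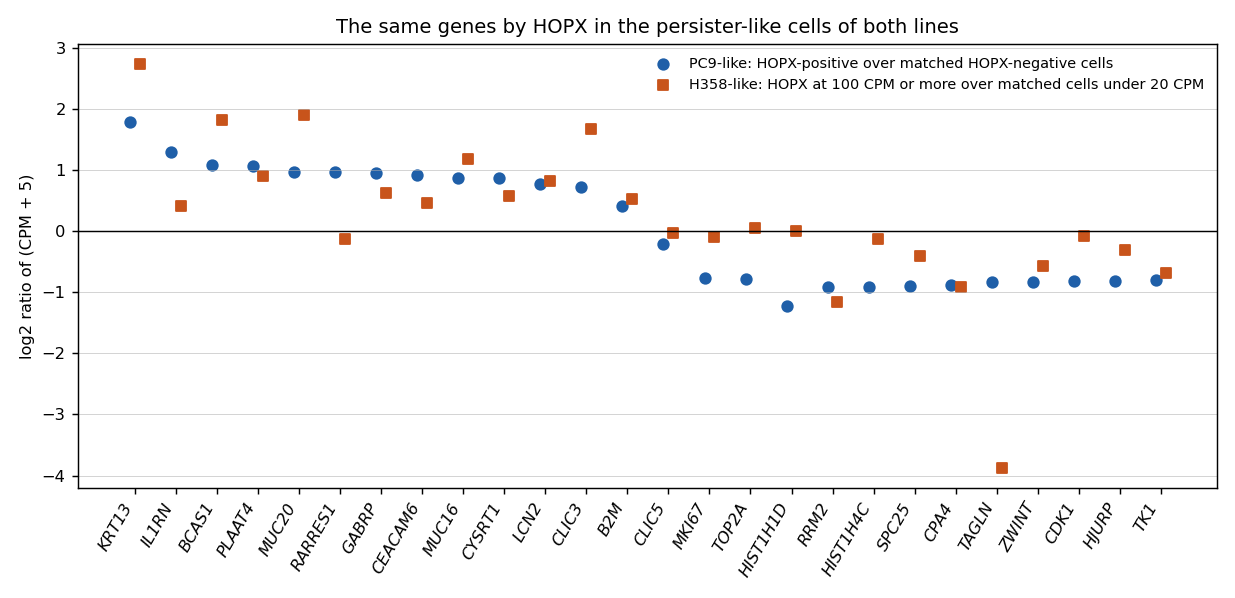
Log2 ratio of (CPM + 5) with HOPX (y axis) for named genes (x axis) in PC9-like persister-like cells (circles, HOPX-positive over matched HOPX-negative, 239 against 477 cells within the line limit) and in H358-like persister-like cells (squares, HOPX at 100 CPM or more over matched cells under 20 CPM, 333 against 333 cells). KRT13 is at 1.79 and 2.73, CLIC5 at -0.21 and -0.03, and the TAGLN circle at -0.83 lies well above its square at -3.87.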

How the data were processed

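RNA was measured with a droplet-based 3′ assay (10x Genomics) in 1 pooled run. The deposited matrix holds raw counts (UMIs per gene and barcode) that the authors made with Cell Ranger 7.1.0 on hg38, per the file header and the submitters' processing notes, and their barcode filter and use of intronic reads are not given in the sources used here. The hashtag library was not analysed here, and 0 columns of the matrix were unmapped. The rows with a repeated symbol (20) were kept under their own identifiers.

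Members, lists and named genes were chosen with earlier results of these data known. Line-specific genes (50 each) came from H358-like reference cells (NKX2-1 at 100 CPM or more, EGFR under 100 CPM) and HOPX-negative cells of the PC9-like gates, at 20 CPM or more in their own line. Rule genes and listed genes were left out, but not those of the 2 signature lists. Each member was matched without replacement to 2 HOPX-negative cells within 10% of its total UMIs, and 1 of 239 found 1 match. Ratios are log2 of (CPM + 5) of summed UMIs for genes at 5 CPM or more in either group, without HOPX. With 1 sample there are no p-values. Intervals are exact Poisson (levels) and Clopper-Pearson (shares) at 95%, and cover counting error only. The text names the genes with the 10 highest and the 10 lowest ratios at 20 CPM or more, without mitochondrial, ribosomal, clone-named and rule genes, up to 3 genes of each of 37 lists (2 of them signature lists from the study's supplement), and fixed genes of AT1, NF-kB, SRF, YAP and histone enzymes. Genes named as cluster leaders, MMP7 within the line limit, the H358-like markers beside HOPX, and the mesenchymal-like and cell cycle genes read in H358-like cells were chosen after their values were seen.

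Cells were clustered in scanpy 1.11.5 (2000 variable genes, 30 principal components, 15 neighbours, Leiden resolution 0.5), thinned with seed 1 and screened with Scrublet, whose 635 calls were kept and left out as an alternative. The contrast was tested on simulated counts. These held no variation between cells, so the test does not show how often genes pass 1.5-fold without a true difference here. Alternatives used edgeR 4.0.16 and DESeq2 1.42.0 for scaling factors, and others are given in the closing section. Positions are from GENCODE 44 on hg38. Some genes of the lists are not reported here by name.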

Additional observations from a re-analysis of the deposited data

How the results depend on the processing

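No paired analysis was possible because the matrix is 1 sample, and for the same reason no replicate could be left out. Counts of genes 1.5-fold or more higher and lower (82 and 49 for all 285 cells, 54 and 77 within the line limit) are given in that order, and the cause of each change was not tested. A pseudocount of 1 CPM gave 161 and 169 (within the limit 115 and 234), a 20 CPM filter 41 and 31 (35 and 48), matching within clusters 34 and 11 (28 and 19) and thinning to 10000 UMIs 220 and 171 (141 and 226). The shallowest members gave 445 and 227 (255 and 228), those of middle depth 164 and 312 (201 and 502), the deepest 80 lower (103 higher within the limit), and members with 2 or more HOPX UMIs 450 and 635 (480 and 911), with fewer cells in each. Lower genes numbered 206 without Scrublet calls (236 within the limit), 28 with EGFR at 100 CPM or more (39) and 142 with the 4 summed genes at 1600 CPM or more (159). Within the limit they numbered 132 with 1 match per member and 29 without cycling cells, and a line score of at most 2% gave 115 higher and 187 lower. For all 285, leaving out high H358-like marker sums gave 50 higher.

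The HOPX-positive share (4.42%, within the limit 3.66%) was 3.00% and 2.24% at 5000 UMIs, 6.49% and 5.91% at 20000, 10.9% and 9.51% unthinned, 5.59% and 4.72% without cycling cells, and 0.970% and 0.482% with 2 or more HOPX UMIs. Without the limit on NKX2-1 it was 7.33%, and without high H358-like marker sums 3.45%. The G2/M median (-0.40, within the limit -0.45) was -0.20 and -0.19 in the shallowest members, -0.73 and -1.22 with 2 or more HOPX UMIs and -0.11 and -0.13 without cycling cells. For all 285 it was -0.75 with the summed genes at 1600 CPM or more and -0.77 with the line limit and without Scrublet calls.

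The direction of these genes changed, given as log2 ratios. In the shallowest members, HIST1H1D was at 0.65 (within the limit 0.69), HIST1H4C 0.43 (0.52), SPC25 0.14 (0.073) and CDK1 0.13 (0.16). There TAGLN was at 0.10 and SPANXB1 at -1.37 over all 285, and RRM2 at 0.82, ZWINT 0.24, TOP2A 0.21, KRT17 -0.99 and CXCL8 -0.32 within the limit. SPANXB1 was at -0.73 at middle depth, -0.72 with 2 or more HOPX UMIs and -0.76 without cycling cells, and CXCL8 at -0.44, -0.39 and -0.46 in these, and at -0.090 with a score of at most 2%. MYL7 was at 0.19 (0.73) in the deepest members, SPC25 at 0.17 (0.14) and ZWINT at 0.29 within the limit without cycling cells. PAGE5 was at -0.17 within clusters, and PCSK1N at -0.025 with the line limit and without Scrublet calls. TMM and DESeq2 scaling, a total without mitochondrial and ribosomal genes, no matching, a mitochondrial limit of 10% and a line score of at most 5% changed none of these directions. Smaller ratios also changed sign within the limit, among them CLIC5 (from -0.55 to 0.34) and EZH2 (from -1.22 to 0.21). The AT1 median ran from -0.23 to 0.09, the NF-kB target median from -0.22 to 0.32 and the interferon median from -0.13 to 0.35. The lowest medians of MHC class I and of complement and airway defence were 0.08 and 0.14.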
